A study of Mus musculus with 6 samples.

Results

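Heterogeneous nuclear ribonucleoproteins (hnRNPs) and other sequence-specific splicing regulators were followed in whole mouse ovaries that lack the SR protein SRSF1 in germ cells. The set holds 40 genes, 20 hnRNP genes and 20 other RNA-binding regulators of splicing, found by gene symbol among the 54532 genes of the deposited FPKM table (read fragments scaled by gene length and library size, so that levels can be compared between genes). SR proteins and core spliceosome proteins are not in the set. All 40 genes were in the table, and all 40 passed the minimum mean of 0.5 FPKM over the libraries that was set for testing.

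Whole ovaries were taken from mice of the C57BL/6 strain at 16.5 dpc (days post-coitus), and their RNA was sequenced in 3 Ctrl and 3 cKO libraries, which the study's methods describe as biological replicates. In cKO mice, the *Stra8-GFPCre* transgene, which is active in germ cells entering meiosis, removed exons from floxed *Srsf1* alleles, whereas somatic cells of the same ovaries kept *Srsf1*. The labels describe the Ctrl mice only as wild type, and their extraction text names a different tissue, retina, while the tissue field names ovary. Markers of both compartments of the fetal ovary were present in every library, with *Ddx4* of germ cells between 13.1 and 55.1 FPKM and *Foxl2* of pregranulosa cells between 47.5 and 74.6 FPKM. *Srsf1* had 63.1 to 80.2 FPKM in Ctrl and 32.4 to 37.0 FPKM in cKO ovaries. Between 14212164 and 16784241 reads on genes stood behind each library.

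hnRNPs coat nascent transcripts, and many of them bind silencer elements in exons and introns and keep nearby splice sites from being used. SR proteins such as SRSF1 bind exonic enhancers and promote the use of splice sites, and the balance of hnRNP A1 and SRSF1 sets the choice between competing 5′ splice sites in classical assays. The other regulators of the set, such as the PTBP, MBNL, CELF, RBFOX, TIA and STAR proteins, act as repressors or activators according to where they bind, and several differ between cell types, so that they make splicing patterns specific to a tissue. Measurements of RNA levels per gene say nothing of the splicing activity of these proteins.

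Within families, members are alike in sequence, so the ability of a sequencing read to tell them apart comes before their values. *Hnrnph2* and *Hnrnph1*, which encode proteins that bind runs of G, were the most alike of the 19 pairs of relatives compared, with 85.3% identical coding bases. Their most similar stretch of 150 bases, the length of 1 read, is shown because *Hnrnph2* was the single gene of the set to pass the test described below. Both stretches are coding bases 271 to 420, from GRCm38, 5′ to 3′ on the plus strand, with capitals at the 11 bases that differ. *Hnrnph2* (ENSMUSG00000045427) spans bases 134601179 to 134607060 of chromosome X. Its stretch lies in exon 3 of 3 (chrX:134605178-134605327), and the *Hnrnph1* stretch joins exons 4 and 5 of 13, with the intron left out (chr11:50379838-50381481).
Hnrnph2: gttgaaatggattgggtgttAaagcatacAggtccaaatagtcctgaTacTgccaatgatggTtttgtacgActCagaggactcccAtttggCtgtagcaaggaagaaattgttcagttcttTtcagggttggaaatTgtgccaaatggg
Hnrnph1: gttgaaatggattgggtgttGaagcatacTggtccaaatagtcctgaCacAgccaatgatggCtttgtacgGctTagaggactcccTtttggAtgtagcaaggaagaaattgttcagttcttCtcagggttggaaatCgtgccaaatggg

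*Ptbp2* and *Ptbp1*, which encode polypyrimidine tract-binding proteins, were the only pair of relatives in which both genes had an unadjusted exact permutation p below 0.05 against the germ-cell level of a library, described below, and their signs were opposite. Their coding bases were 70.4% identical, and the most similar stretches of 150 bases differ at 33 positions, again in capitals. The *Ptbp2* stretch, coding bases 1048 to 1197, joins exons 10 to 12 of 14 on the minus strand (chr3:119720980-119724642). The *Ptbp1* stretch, coding bases 1117 to 1266, joins exons 10 to 12 of 14 on the plus strand (chr10:79862017-79862678).
Ptbp2: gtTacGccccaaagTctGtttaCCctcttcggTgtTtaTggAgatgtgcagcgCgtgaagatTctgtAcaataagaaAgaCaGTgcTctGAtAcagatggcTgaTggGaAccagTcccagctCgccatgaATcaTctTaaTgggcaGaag
Ptbp1: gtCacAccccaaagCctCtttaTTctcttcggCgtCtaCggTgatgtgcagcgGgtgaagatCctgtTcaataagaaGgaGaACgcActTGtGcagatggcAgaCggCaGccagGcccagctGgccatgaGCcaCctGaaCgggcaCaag

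In none of the 19 pairs did the coding sequences share a stretch of 150 identical bases. Stretches shared with genes outside these pairs did occur, either as copies elsewhere or because the genes overlap. In transcripts of GENCODE M21, 16 of the 40 genes had windows of 150 bases that also occur in another gene, and in 7 genes these made up over 10% of the windows. They were *Hnrnpa3* (89.8%, shared with 18 genes), *Hnrnpf* (49.5%), *Hnrnpm* (26.9%), *Hnrnpa1* (22.4%), *Hnrnpk* (20.4%), *Ptbp1* (11.1%) and *Tra2b* (11.1%). For *Hnrnpm*, the only gene sharing windows was *March2*, which overlaps it on the same strand. For *Ptbp1*, the gene sharing most, *Gm17134*, overlaps it on the other strand. The sources used here do not say how the authors' counting treated reads with several matches or reads lying in several genes. The levels of these 7 genes, and of *Hnrnpa3* above all, are therefore uncertain. In *Hnrnph2*, 2.34% of windows were shared. In addition, 15 of the 40 genes overlap exons of a gene on the other strand, including *Hnrnpab*, which shares 29.1% of its exon bases with *Phykpl*, and 4 overlap a gene on the same strand, including *Hnrnpul2* at 5.06% of its exon bases.

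The median level of the hnRNP genes was 71.1 FPKM, against 18.5 FPKM for the 20 other regulators and 5.97 FPKM for all 17180 genes tested. The 20 hnRNP genes together had between 1493 and 1749 FPKM per library, which was 0.492% to 0.546% of all FPKM, and the 20 other regulators had between 419 and 490 FPKM. *Hnrnpa1*, *Hnrnpa2b1*, *Hnrnph1* and *Hnrnpa0* made up 46.6% to 49.8% of the summed hnRNP level in each library. The order of these 4 genes was not set by the data, since the range of each over the 6 libraries overlapped that of the next. At the other end, *Celf2* and *Esrp1* had mean levels of 2.90 and 2.02 FPKM.

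**Figure D1:**
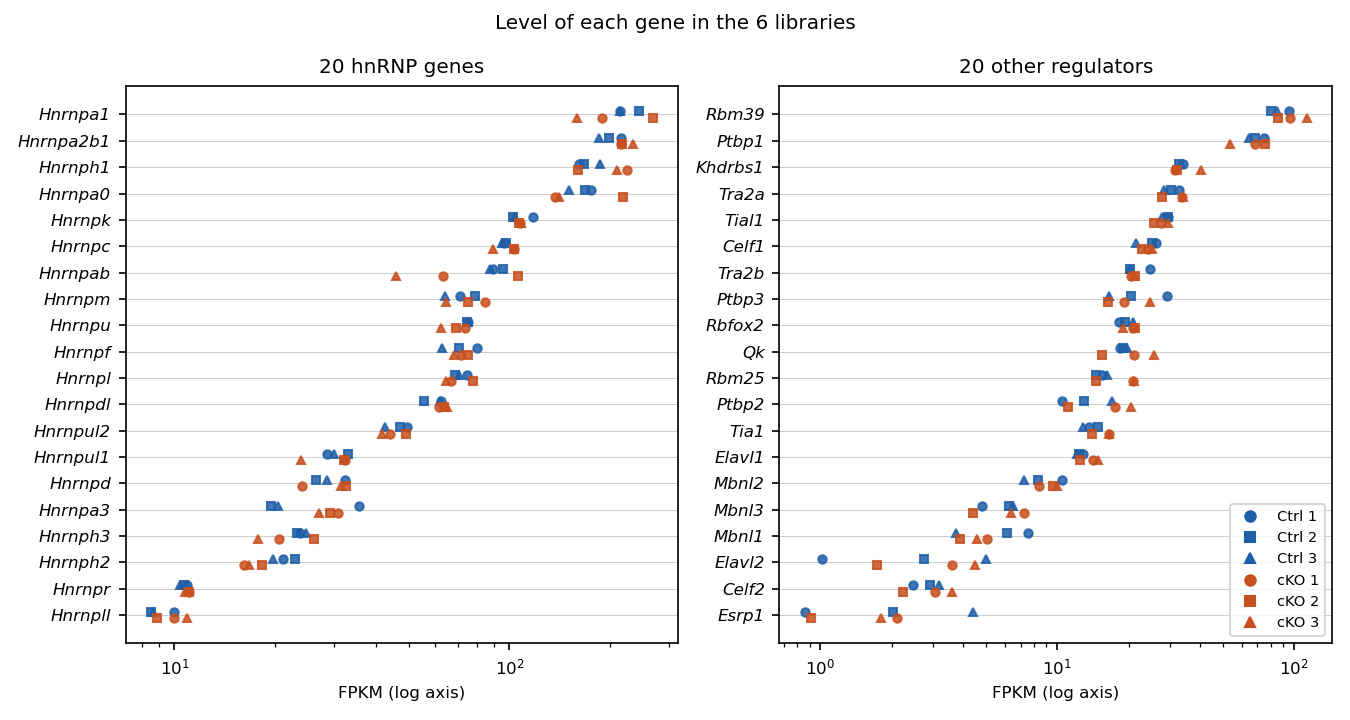
FPKM of each gene of the set in the 6 libraries, on a log axis, with the 20 hnRNP genes on the left and the 20 other regulators on the right, ordered by mean level. Blue symbols are Ctrl and orange symbols cKO, and the symbols mix in nearly every row, with *Hnrnph2* and *Hnrnpu* as the 2 rows in which the colours do not overlap.

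To ask whether loss of *Srsf1* in germ cells went with a change in RNA of these regulators, log2(FPKM + 1) was compared between cKO and Ctrl ovaries with limma across all 17180 genes, two-sided. On this scale, fold changes of low genes are understated. At an unadjusted p below 0.05, the limit the study used, 1 of the 40 genes was lower (*Hnrnph2*) and 0 were higher in cKO ovaries, which was 2.5% of the set. Over all genes tested, 4.43% passed that limit, 2.68% higher and 1.75% lower, so the share in the set was not above the background. At a Benjamini-Hochberg adjusted p below 0.05, limma called 0 of the 40 genes and 0% of all genes, and the smallest adjusted p in the set was 0.978. The deleted gene *Srsf1*, with a log2 fold change of -0.99 (limma, unadjusted p = 0.000158, adjusted p = 0.497), did not pass it either. A count of 0 at the adjusted limit therefore does not show that nothing changed. Limma voom on the recovered reads also had *Hnrnph2* as its single gene of the set at the unadjusted limit, beside 4.04% of all genes, and 0 at the adjusted limit.

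The 3 cKO libraries lay apart from the 3 Ctrl libraries for 2 of the 40 genes (5%), *Hnrnph2* and *Hnrnpu*, both lower in cKO. Over all genes tested, groups did not overlap for 8.68%, with 4.59% higher and 4.1% lower in cKO, so this share was not above the background either. The median log2 fold change of the set was 0.03, against -0.01 for all genes tested, with 23 genes above and 17 below 0. The median size of the change, without its sign, was 0.09 in the set and 0.13 over all genes.

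What the libraries can bound differed between genes. The 95% limma interval of the log2 fold change lay within 1 of 0 for 37 of the 40 genes (92.5%), so that a doubling or halving of the ovary's RNA on this scale was outside it, and this held for 83.4% of all genes tested. The 3 others were *Hnrnpab* (-1.10 to 0.26), *Elavl2* (-0.83 to 1.24) and *Esrp1* (-1.23 to 0.66). The interval lay within 0.5 of 0 for 25 genes (62.5%), against 37.4% of all genes. Because *Srsf1* was deleted in germ cells only, a change confined to germ cells would be diluted in whole-ovary RNA. In bulk RNA, fewer cells of a type and less RNA per cell cannot be told apart.

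**Figure D2:**
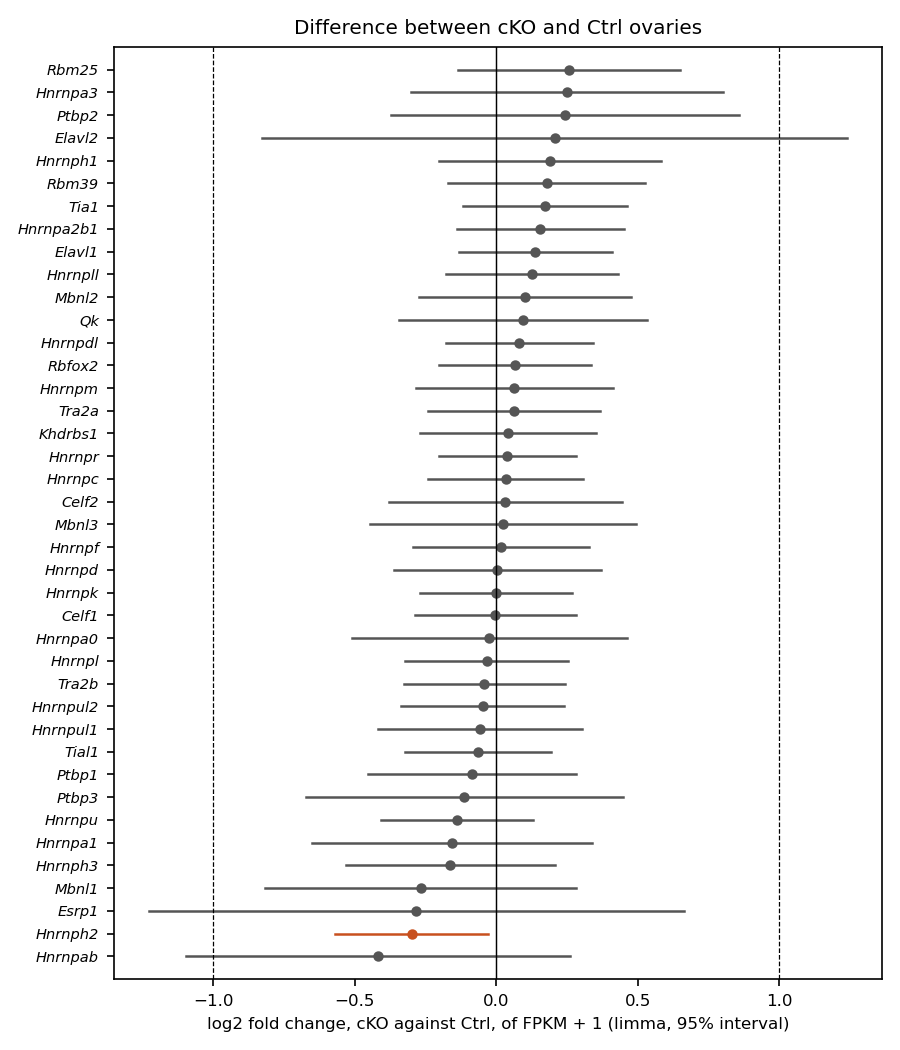
Log2 fold change of FPKM + 1 in cKO against Ctrl ovaries for the 40 genes, with 95% limma intervals (3 libraries per group) and dashed lines at -1 and 1. The interval of *Hnrnph2*, in orange, is the only one that leaves out 0, and those of *Hnrnpab*, *Elavl2* and *Esrp1* reach past a dashed line.

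The A-type hnRNPs bind short motifs rich in AG in exonic and intronic silencers. *Hnrnpa1*, the classical antagonist of SRSF1, had 214, 244 and 214 FPKM in Ctrl 1, 2 and 3, against 188, 268 and 159 FPKM in cKO 1, 2 and 3. Mean levels were 224 ± 17.1 for Ctrl and 205 ± 56.5 for cKO ovaries (SD, n = 3), and the log2 fold change was -0.16 (limma, unadjusted p = 0.476). The cKO libraries lay on both sides of the Ctrl libraries, with cKO 2 above and cKO 1 and cKO 3 below all of them. *Hnrnpa0*, a smaller A-type relative, followed the same arrangement of libraries, with 175, 168 and 150 FPKM in Ctrl and 137, 218 and 140 FPKM in cKO. *Hnrnpa2b1*, which encodes hnRNP A2/B1, was steadier, with 215, 198 and 185 FPKM in Ctrl and 215, 217 and 234 FPKM in cKO. Its groups overlapped at Ctrl 1 and cKO 1. *Hnrnpa3* had 35.6, 19.4 and 20.4 FPKM in Ctrl and 30.9, 29.2 and 27.0 FPKM in cKO, so Ctrl 1 was the highest of all 6 libraries and the other 2 Ctrl libraries the lowest.

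The F and H proteins bind G-rich elements and can enhance or silence exons. *Hnrnph2* had 21.1, 22.8 and 19.7 FPKM in Ctrl and 16.1, 18.3 and 16.7 FPKM in cKO ovaries. All cKO libraries were below all Ctrl libraries, with cKO 2 and Ctrl 3 as the closest. The mean fell from 21.2 ± 1.57 to 17.0 ± 1.10 (SD, n = 3), with 1039 to 1615 reads per library behind it. This was a log2 fold change of -0.30 (SE 0.11, 95% interval -0.57 to -0.03), with an unadjusted p = 0.0351 in limma and an adjusted p = 0.978 by the Benjamini-Hochberg method. Without Ctrl 1, Ctrl 2, cKO 1 or cKO 3, *Hnrnph2* no longer passed the unadjusted limit (p between 0.0773 and 0.135), and its log2 fold change stayed between -0.35 and -0.25 with each library left out in turn.

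*Hnrnph1*, the closest relative of *Hnrnph2*, was the third most abundant gene of the set, with 161, 167 and 187 FPKM in Ctrl and 224, 160 and 210 FPKM in cKO. Libraries cKO 1 and cKO 3 were above all Ctrl libraries and cKO 2 was below them. *Hnrnph3* had 23.7, 23.3 and 24.7 FPKM in Ctrl and 20.6, 26.2 and 17.7 FPKM in cKO, with cKO 2 above and the other 2 cKO libraries below Ctrl. *Hnrnpf* had 80.3, 70.7 and 62.8 FPKM in Ctrl and 71.8, 75.3 and 68.3 FPKM in cKO, all within the Ctrl range. For these 3 genes the unadjusted limma p was 0.287, 0.334 and 0.901.

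The AB and D proteins bind AU-rich and related elements and also act on RNA stability. *Hnrnpab* had 89.4, 95.5 and 87.4 FPKM in Ctrl and 63.4, 106 and 45.9 FPKM in cKO. It had the largest log2 fold change of the set, -0.42 (SE 0.29, limma, unadjusted p = 0.187), but cKO 2 was the highest of all 6 libraries. Its levels varied 2.31-fold between libraries, the widest spread of an hnRNP gene. *Hnrnpd* (AUF1) was between 24.0 and 32.5 FPKM and *Hnrnpdl* between 55.7 and 65.1 FPKM, with log2 fold changes of 0.00 and 0.08.

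*Hnrnpu*, a nuclear matrix protein that binds RNA and chromatin, had 75.0, 74.8 and 75.4 FPKM in Ctrl and 73.4, 69.1 and 62.3 FPKM in cKO. Ctrl libraries were within 1 FPKM of each other and all cKO libraries were below them. The log2 fold change of -0.14 did not pass the unadjusted limit (limma, unadjusted p = 0.262, interval -0.41 to 0.13). Its relative *Hnrnpul2* had 49.5, 47.3 and 42.6 FPKM in Ctrl and 44.1, 49.1 and 41.6 FPKM in cKO, so both groups covered nearly the same range. *Hnrnpul1*, the other relative, was between 23.9 and 32.9 FPKM.

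The remaining hnRNP genes bind varied motifs, and their groups overlapped. *Hnrnpk*, which binds C-rich sequence, had 117, 103 and 104 FPKM in Ctrl and 108, 107 and 108 FPKM in cKO, the smallest difference among the hnRNP genes at a log2 fold change of 0.00. *Hnrnpl*, which binds CA repeats, had 74.8, 68.8 and 70.6 FPKM in Ctrl and 67.0, 78.0 and 64.6 FPKM in cKO. The cKO libraries of *Hnrnpl* spanned the whole Ctrl range. Its paralog *Hnrnpll*, known from splicing in lymphocytes, was between 8.49 and 10.9 FPKM. *Hnrnpc*, which binds U-rich tracts, ranged from 89.6 to 103 FPKM and *Hnrnpm* from 64.2 to 84.5 FPKM. *Hnrnpr*, which ranged from 10.4 to 11.1 FPKM, was the steadiest gene of the set, with a within-group SD of 0.03 on the log2 scale.

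PTBP proteins bind pyrimidine tracts and mostly repress exons, and PTBP1 is known to repress an exon of *Ptbp2*, which sends the *Ptbp2* transcript to decay. *Ptbp1* had 75.0, 68.2 and 64.6 FPKM in Ctrl and 68.2, 75.2 and 53.8 FPKM in cKO. *Ptbp2*, best known from neurons and spermatogenic cells, had 10.5, 12.9 and 17.1 FPKM in Ctrl and 17.5, 11.1 and 20.5 FPKM in cKO. Groups overlapped for both, and the log2 fold changes were -0.09 for *Ptbp1* and 0.24 for *Ptbp2* (limma, unadjusted p = 0.600 and 0.378). *Ptbp3* was between 16.4 and 29.2 FPKM.

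MBNL proteins switch exons from fetal to adult forms in muscle and other tissues, and CELF proteins often act against them. *Mbnl1* had 7.53, 6.16 and 3.73 FPKM in Ctrl and 5.04, 3.90 and 4.60 FPKM in cKO, a log2 fold change of -0.27 (limma, unadjusted p = 0.288). Ctrl 1 was the highest and Ctrl 3 the lowest of the 6 libraries, so the cKO libraries lay inside the Ctrl range. *Mbnl3* had 4.79, 6.24 and 6.51 FPKM in Ctrl and 7.26, 4.40 and 6.40 FPKM in cKO, and *Mbnl2* was between 7.25 and 10.5 FPKM. *Celf2* had 2.45, 2.90 and 3.16 FPKM in Ctrl and 3.05, 2.22 and 3.59 FPKM in cKO, while the widely expressed *Celf1* was between 21.5 and 26.1 FPKM.

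*Elavl2*, a Hu protein gene of neurons and oocytes, had 1.02, 2.73 and 4.98 FPKM in Ctrl and 3.61, 1.73 and 4.51 FPKM in cKO. The spread within groups was far wider than the difference between them, which was 0.21 on the log2 scale (SE 0.43), and 127 to 723 reads stood behind the values. Its ubiquitous relative *Elavl1* (HuR) was between 12.2 and 14.9 FPKM. *Esrp1*, which sets epithelial splicing patterns, had 0.857, 2.02 and 4.39 FPKM in Ctrl and 2.11, 0.917 and 1.81 FPKM in cKO, from 81 to 484 reads. Its levels varied 5.13-fold, the widest spread of the set, and Ctrl 3 stood above all other libraries.

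TIA1 and TIAL1 bind U-rich sequence next to 5′ splice sites and help their recognition. *Tia1* had 13.7, 14.9 and 12.8 FPKM in Ctrl and 16.5, 14.04 and 16.5 FPKM in cKO, whereas *Tial1* had 29.3, 29.2 and 27.6 FPKM in Ctrl and 27.4, 25.6 and 29.4 FPKM in cKO. Groups overlapped for each gene alone, with cKO 2 inside the Ctrl range of *Tia1* and the cKO libraries spanning the Ctrl range of *Tial1*. *Rbm25*, which binds exonic enhancers, had 15.4, 14.5 and 16.3 FPKM in Ctrl and 20.9, 14.5 and 21.05 FPKM in cKO, the largest positive log2 fold change of the set at 0.26 (limma, unadjusted p = 0.162). Again cKO 1 and cKO 3 lay above Ctrl and cKO 2 within it. The remaining regulators showed no group separation. *Rbm39*, a U2AF-related factor, was between 79.6 and 113 FPKM, highest in cKO 3. Of the STAR proteins, which bind RNA as dimers, *Khdrbs1* (Sam68) was between 31.5 and 40.3 FPKM and *Qk* (Quaking) between 15.4 and 25.6 FPKM, each also highest in cKO 3. *Tra2a* and *Tra2b*, activators that bind GAA-rich enhancers, were between 27.8 and 34.1 and between 20.3 and 24.6 FPKM. *Rbfox2*, which binds near regulated exons of muscle, nerve and many other cells, was between 18.2 and 21.4 FPKM, and its log2 fold change was 0.07.

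Library cKO 2 stood apart from cKO 1 and cKO 3 in many of these genes, and leaving it out moved the counts most. Without it, limma called 6 of the 40 genes at an unadjusted p below 0.05, with *Hnrnph1* and *Rbm25* higher and *Hnrnpa1*, *Hnrnpab*, *Hnrnph2* and *Hnrnph3* lower. This was 15% of the set, beside 14.5% of all genes tested without that library. Without Ctrl 3, 2 genes were lower (*Hnrnph2* and *Mbnl1*), beside 6.85% of all genes, and without Ctrl 1, 1 gene was higher (*Hnrnpa3*), beside 3.64% of all genes. Without Ctrl 2, cKO 1 or cKO 3, 0 of the 40 genes passed, beside 2.12%, 2.57% and 2.47% of all genes.

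The libraries also differed in the RNA of germ cells, in both groups. The mean log2(FPKM + 1) of 10 germ-cell genes, which include *Ddx4*, *Dazl* and *Sycp3*, stood at 3.06, 3.77 and 4.64 for Ctrl 1, 2 and 3, and at 4.64, 3.62 and 4.96 for cKO 1, 2 and 3. Of the 10 genes, 2 were higher in cKO ovaries at the unadjusted limit (*Dazl* and *Dppa3*) and 0 lower. The corresponding level of 10 pregranulosa genes ranged from 4.96 to 5.14 in Ctrl and from 4.85 to 5.33 in cKO, with 0 genes passing. That of 10 red blood cell genes ranged from 6.06 to 7.94 in Ctrl, highest in Ctrl 1, and from 5.39 to 7.10 in cKO, with 1 gene higher. Levels of 8 stroma, 7 endothelium and 7 proliferation genes overlapped between groups with 0 genes passing. So did those of 8 immune and 6 mesonephros genes, in which the leukocyte gene *Ptprc* was at most 0.401 FPKM and the duct gene *Pax2* at most 0.220 FPKM.

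To describe which regulators varied along with germ-cell RNA, log2(FPKM + 1) of each gene was correlated with the germ-cell level over the 6 libraries, which makes 40 relations with p from exact permutation tests, two-sided, and with p adjusted by the Benjamini-Hochberg method over the same relation in all 17180 genes tested. *Ptbp2* had a Pearson's r of 0.98 (exact p = 0.00139, the smallest that 6 libraries allow, adjusted p = 0.207) and a Spearman's rho of 1.00 (exact p = 0.00278). Without Ctrl 1 and cKO 3, the 2 libraries farthest from the median germ-cell level, r was 0.98. With a rho of 1.00, *Ptbp2* and the germ-cell level necessarily have the same order within each group too, which is no separate check. *Elavl2* followed with an r of 0.95 (exact p = 0.00556, adjusted p = 0.234), a rho of 0.83 (exact p = 0.0583) and an r of 0.90 without those 2 libraries.

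*Celf2* had an r of 0.87 (exact p = 0.0250) and a rho of 0.89 (exact p = 0.0333), with an r of 0.80 without the 2 farthest libraries, and *Hnrnph1* had an r of 0.87 (exact p = 0.0431), a rho of 0.89 (exact p = 0.0333) and an r of 0.87 without them. *Mbnl3* came next with an r of 0.79 (exact p = 0.0764). On the negative side, *Hnrnpul2* had an r of -0.97 (exact p = 0.00833, adjusted p = 0.238), a rho of -0.94 (exact p = 0.0167) and an r of -0.97 without the 2 farthest libraries. *Ptbp1* had an r of -0.83 (exact p = 0.0389), a rho of -0.77 (exact p = 0.103) and an r of -0.76 without them. *Hnrnpf*, *Hnrnpl* and *Hnrnpa0* had an r of -0.80, -0.78 and -0.76. The adjusted p in the permutation tests was 0.251 for *Celf2*, 0.268 for *Hnrnph1*, 0.267 for *Ptbp1* and between 0.284 and 0.316 for these 3 genes and *Mbnl3*.

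In all, 6 of the 40 relations (15%) had an unadjusted exact permutation p below 0.05, beside 17.7% of all 17180 genes tested, so relations of this kind were no more frequent in the set than elsewhere. After adjustment over all genes tested, 0 of the 40 relations had a p below 0.05, the smallest being 0.207. The germ-cell levels were unevenly spaced, with Ctrl 1, Ctrl 2 and cKO 2 between 3.06 and 3.77 and the other 3 libraries between 4.64 and 4.96, and 3 libraries are too few for an r within either range. Each point is 1 library, so a gene and the germ-cell level share its depth and cell content. The level of red blood cell genes was also highest in Ctrl 1, and its part in these relations was not tested.

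**Figure D3:**
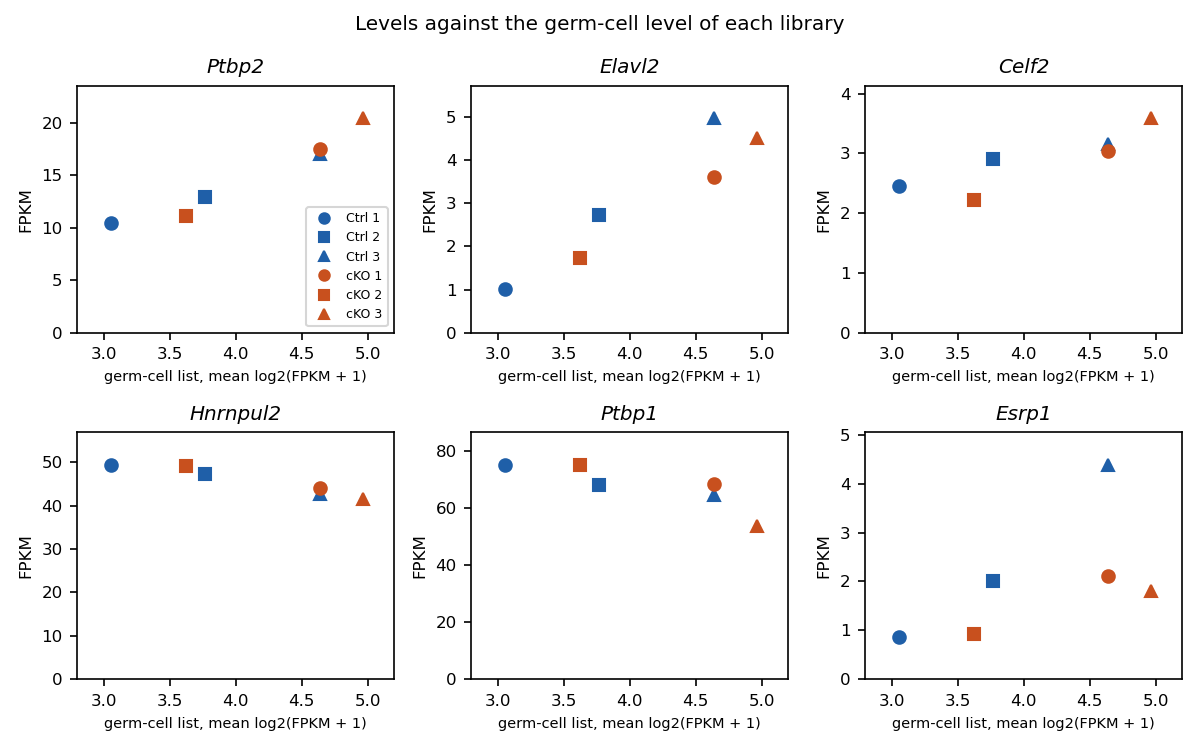
FPKM of 6 genes against the germ-cell level of each library, which is the mean log2(FPKM + 1) of 10 germ-cell genes, with blue for Ctrl and orange for cKO. *Ptbp2*, *Elavl2* and *Celf2* are higher and *Hnrnpul2* and *Ptbp1* lower where that level is high, while *Esrp1* in Ctrl 3 stands above the cKO libraries of like germ-cell level.

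**Figure D4:**
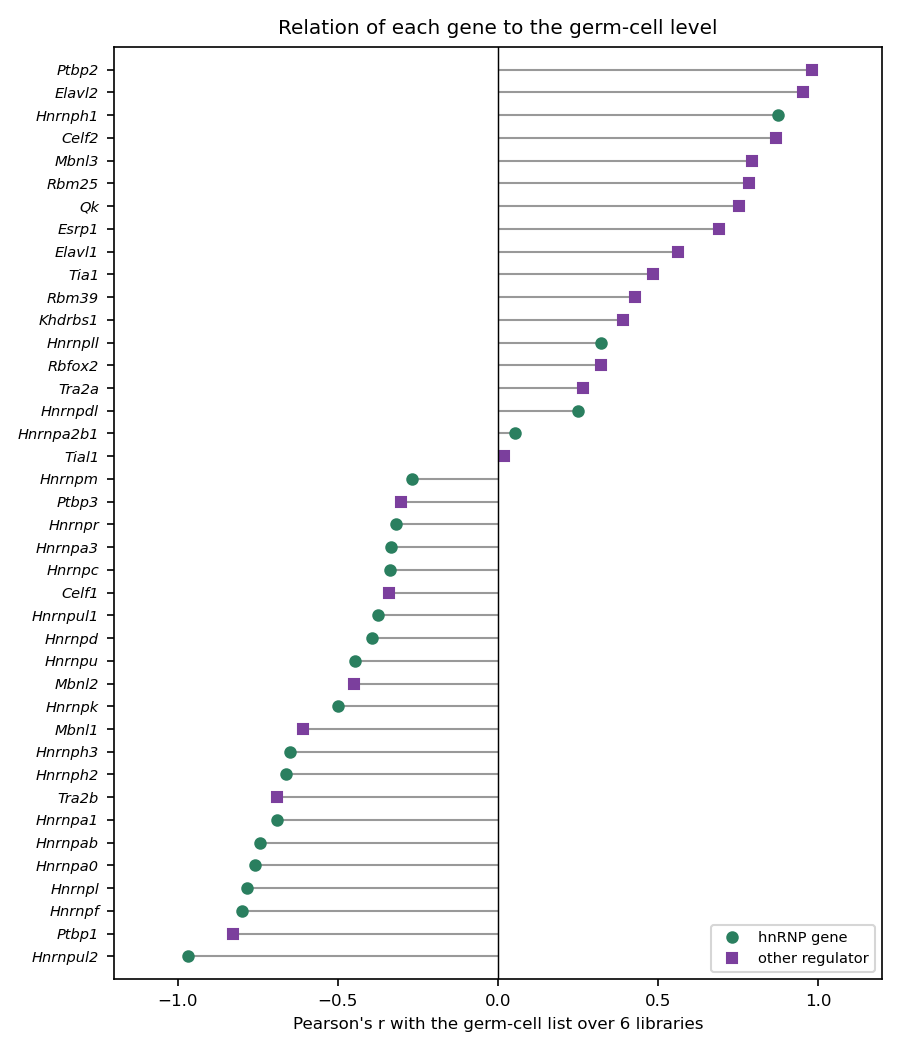
Pearson's r between log2(FPKM + 1) of each of the 40 genes and the germ-cell level over the 6 libraries, with circles for hnRNP genes and squares for other regulators. Most hnRNP genes lie below 0, down to *Hnrnpul2* at -0.97, but the share of all genes below 0 was not counted. The highest values, *Ptbp2* at 0.98 and *Elavl2* at 0.95, belong to other regulators.

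With the germ-cell level as a covariate, limma called 1 of the 40 genes at the unadjusted limit, beside 5.37% of all genes tested. It was *Esrp1*, lower in cKO ovaries with a log2 fold change of -0.73 (unadjusted p = 0.0126, smallest Benjamini-Hochberg adjusted p in the set 0.838), where the fit without the covariate gave -0.28 (unadjusted p = 0.499). *Hnrnph2* was at -0.25 in that fit (unadjusted p = 0.0664). The germ-cell level was itself 0.59 higher on average in cKO ovaries, and it holds *Dazl* and *Dppa3*, which passed the unadjusted limit. The covariate thus carries part of the group difference, and this fit cannot fully tell group and germ-cell level apart. In a further fit, added after the data were seen, the covariate was kept and each library left out in turn. Without Ctrl 3, *Esrp1* was at -0.47 (limma, unadjusted p = 0.160), and without another library it was between -0.97 and -0.62 and still past the unadjusted limit. Without Ctrl 3 and with no covariate it was at 0.11.

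Ratios between relatives inside a library hardly depend on the scaling between libraries, and 19 pairs were compared as the log2 ratio of FPKM + 1. The groups did not overlap for 1 of the 19 pairs, and for 9 when cKO 2 was left out. Groups with fewer libraries separate more easily, whichever library is left out. Without cKO 2, 14.5% of all genes passed limma's unadjusted limit, against 4.43% with all libraries. Without any other library it was 2.12% to 6.85%. Why leaving out cKO 2 moved the counts most was not tested. The share of other gene pairs that separate was not counted, so neither count can be called particular to relatives. The ratio of *Tia1* to *Tial1* was -1.05, -0.93 and -1.05 in Ctrl and -0.70, -0.82 and -0.79 in cKO ovaries. All cKO ratios were above all Ctrl ratios, by 0.24 on average, and the exact permutation test, two-sided, gave p = 0.1, the smallest that 3 libraries against 3 allow, with an adjusted p of 0.691 over the 19 pairs. The largest difference of any pair was that of *Hnrnph2* to *Hnrnph1*, with a mean log2 ratio of -2.96 ± 0.19 in Ctrl and -3.45 ± 0.34 (SD, n = 3) in cKO and groups that overlapped (exact permutation p = 0.2).

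Over the 6 libraries, the ratios that varied most were those of *Elavl2* to *Elavl1*, over a range of 1.64 on the log2 scale, and of *Ptbp2* to *Ptbp1*, over 1.38. The *Ptbp2* to *Ptbp1* ratio was -2.73, -2.31 and -1.86 in Ctrl and -1.91, -2.65 and -1.35 in cKO. It was lowest in Ctrl 1 and cKO 2 and highest in cKO 3, and the groups overlapped (exact permutation p = 0.5). The ratio of *Hnrnpab* to *Hnrnpd* followed with a range of 1.28, from 0.53 in cKO 3 to 1.81 in Ctrl 2.

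**Figure D5:**
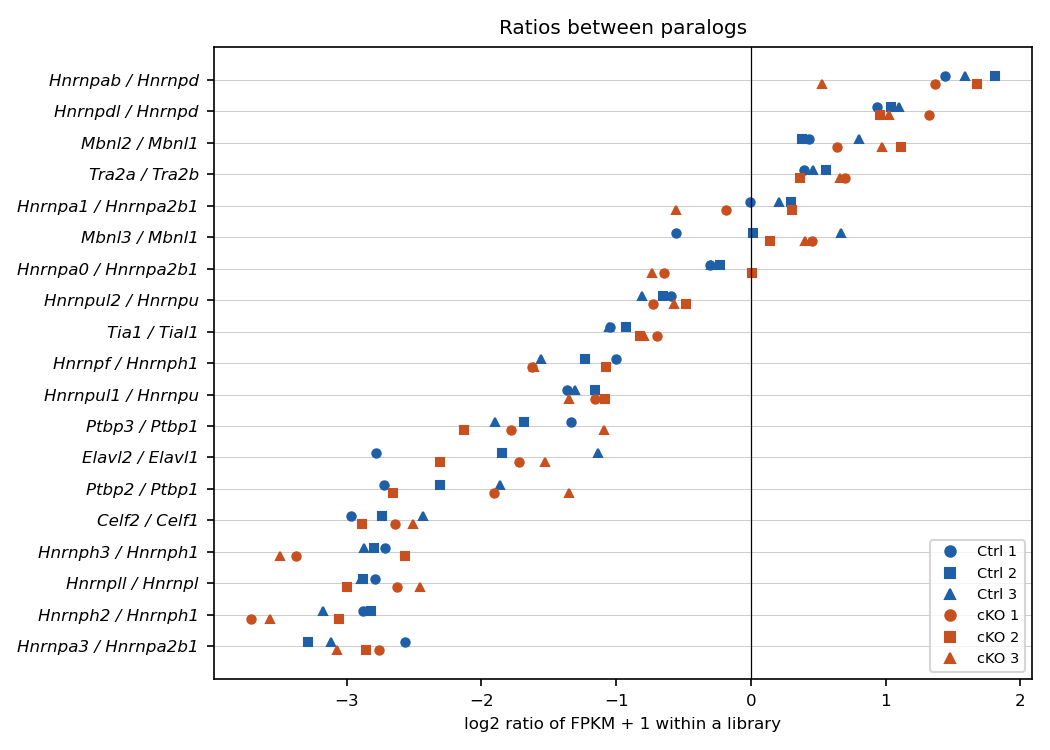
Log2 ratio of FPKM + 1 between 2 relatives within each library, for 19 pairs, with blue for Ctrl, orange for cKO and a line at 0 where both genes are equal. The *Tia1* to *Tial1* row is the only one in which the colours do not overlap, and the rows of *Elavl2* to *Elavl1* and *Ptbp2* to *Ptbp1* are the widest.

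A further list of 63 splicing regulators, written from general knowledge, was counted for comparison. Of these, 50 reached the minimum FPKM, 1 was higher in cKO ovaries at limma's unadjusted limit (2%) and 0 were lower, beside 2.68% higher and 1.75% lower over all genes tested. It was *Pcbp3*, which encodes a poly(C)-binding protein related to hnRNP K. *Pcbp3* had 7.09, 7.81 and 9.58 FPKM in Ctrl and 13.6, 10.04 and 12.2 FPKM in cKO, so the groups did not overlap. Groups did not overlap for 2 of these 50 genes (4%), *Pcbp3* and *Raly*, beside 8.68% of all genes tested. *Pcbp3* was higher by 0.50 on the log2 scale (SE 0.16, limma, unadjusted p = 0.0181, Benjamini-Hochberg adjusted p = 0.978). The change no longer passed without Ctrl 1, Ctrl 2, cKO 1 or cKO 3. The largest change in the list was in *Rbm38*, which had 66.2, 25.4 and 15.9 FPKM in Ctrl and 11.05, 17.4 and 28.3 FPKM in cKO and a log2 fold change of -0.74 (limma, unadjusted p = 0.216). *Cpeb1*, a cytoplasmic polyadenylation factor of oocytes, had 4.96, 14.1 and 23.6 FPKM in Ctrl and 30.4, 8.74 and 28.3 FPKM in cKO, a log2 fold change of 0.67 (limma, unadjusted p = 0.323). The groups overlapped for both.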

How the data were processed

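RNA-seq of 3 Ctrl and 3 cKO libraries was analysed at the level of genes. The authors aligned 150-base paired-end reads to GRCm38 (mm10) with HISAT2 2.0.5, used featureCounts for read counts of genes, and deposited these as FPKM values. The annotation release, the use of strand and the treatment of reads with several matches were not given in the sources. Multiplied by gene length and a fitted library size, each deposited FPKM value gave a whole number of reads (tolerance 0.05). The depth follows from these reads. The fitted size was not the sum of reads on genes. It was 14997043, 16190688 and 17469501 for Ctrl 1, 2 and 3, beside 15548757, 15726253 and 16756795 reads on genes. For cKO 1, 2 and 3 it was 15462643, 16780811 and 14198318, beside 15590178, 16784241 and 14212164. The reason was not tested. The labels gave the groups and replicate numbers.

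Genes with a mean of at least 0.5 FPKM (17180) were fitted as log2(FPKM + 1) with limma 3.58.1 in R 4.3.3, with group as the only term and an intensity trend, two-sided. On simulated libraries, 77.1% of genes changed 2-fold and 4.9% of unchanged genes passed the unadjusted limit. Counts of each gene were drawn independently there, without differences in cell content between libraries. These shares need not hold for the real libraries. Germ-cell relations were adjusted over all genes tested, a choice made after the data were seen, in place of the members alone. Exact permutation tests used scipy 1.17.1 in Python 3.11.15, and Biopython 1.88 aligned coding sequences. Coordinates and transcripts are those of GENCODE M21 for GRCm38, whose gene starts and ends matched the table for 39 of the 40 genes. Alternatives were other pseudocounts, minimum levels, scalings and variance models, protein-coding genes only, a replicate block, the germ-cell level as a covariate and each library left out in turn. The members, lists and tests were chosen with earlier results of these data known. Values in every library are printed for genes of the set that passed the unadjusted limit or whose groups or pair ratios did not overlap. They are also printed for the 5 with the largest changes, the highest levels, and the highest and lowest r with the germ-cell level. Most other genes of the set are given by ranges.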

Additional observations from a re-analysis of the deposited data

How the results depend on the processing

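The count of 1 lower and 0 higher genes of the set held under all other pseudocounts, minimum levels, scalings and variance models tried and with protein-coding genes only. With the germ-cell level as a covariate it was 1 lower, another gene. Whether replicate numbers pair the samples was not settled. The deviations of same-numbered libraries correlated at -0.39, -0.03 and 0.12, and those of differently numbered libraries between -0.34 and 0.35. With 3 libraries per group, such correlations cannot show whether samples were paired. With the replicate number as a block, 3.96% of all genes passed, 2.53% higher and 1.44% lower. Under that block, 0 genes of the set were lower, with *Hnrnph2* at an unadjusted p = 0.0675 in limma, and 2 further regulators were higher. With each library left out in turn, 0 to 2 genes of the set were higher and 0 to 4 lower, and of the further regulators 0 to 4 were higher and 0 to 2 lower. The covariate gave 1 lower further regulator. Pairs with ratios that did not overlap numbered 1 to 9, with 9 without cKO 2, and no share over other gene pairs was counted. The cause of these shifts was not tested. *Hnrnph2* passed the unadjusted limit in 11 of 17 alternatives, and 18 of the 40 genes kept their sign in all of them. The number of relations with r beyond 0.8 in size stayed within 1.5 times under each alternative, but the genes changed. Without the 2 libraries farthest from the median germ-cell level, *Ptbp1* (-0.757) was no longer beyond 0.8. *Qk* (0.821), *Hnrnpa1* (-0.928), *Hnrnpab* (-0.801) and *Hnrnpa0* (-0.883) then were, where *Hnrnpa1* had -0.690 over all libraries.

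*Esrp1* and *Elavl2* had the fewest reads of the set, with 81 and 127 in their lowest library. The part of depth in their spread was not tested. Levels per gene hold no information on isoforms.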

Other observations

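Of the further splicing regulators, *Rbm38*, known as an erythroid splicing factor and p53 target, was highest in Ctrl 1 at 66.2 FPKM, the library with the highest level of red blood cell genes (7.94), and lowest in cKO 1 at 11.05 FPKM, the library with the lowest (5.39). *Rbmxl2*, a germ-cell gene related to the hnRNP G family, had 2.99, 12.3 and 14.8 FPKM in Ctrl and 13.4, 6.23 and 11.2 FPKM in cKO. It was lowest in Ctrl 1 and cKO 2, as was *Cpeb1*, and these 2 libraries had the lowest germ-cell levels. The part of cell content in these values was not tested.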
